A study of Mus musculus with 6 samples.

Results

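Markers of the endothelial cells that line liver vessels, and the Wnt signals that these cells send to hepatocytes, were measured in liver RNA from Mir137-/- mice and compared with Mir137+/+ mice. The set held 10 genes of the 18193 genes tested: the 7 endothelial markers Kdr, Cldn5, Stab2, Lyve1, Clec4g, Pecam1 and Adgrg6, and the 3 secreted signals Rspo3, Wnt2 and Wnt9b. Members were the probe sets whose platform annotation gave exactly 1 gene symbol, that symbol being one of these genes, which took in 15 probe sets. All 10 genes had at least 1 probe set, and no filter on low values was applied. A gene was said to rise or fall (was called) at a limma p, adjusted over all genes, below 0.05 and a change above 1.5-fold, and to pass the test at that adjusted p alone. Adgrg6 (1.76-fold) and Rspo3 (1.58-fold) rose in Mir137-/- livers. Kdr (1.40-fold) and Cldn5 (1.44-fold) were higher by the adjusted p but stayed under the fold change required, and Stab2, Lyve1, Clec4g, Pecam1, Wnt2 and Wnt9b did not pass.

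Each of the 6 arrays held liver RNA of 1 mouse killed on postnatal day 14. The 3 Mir137-/- mice lacked miR-137 in the whole body, through a germline deletion of the exons that encode it, and the 3 Mir137+/+ mice carried the wild-type allele. The knockout line was made in E14 embryonic stem cells, and mice of both genotypes came from matings between heterozygotes according to the methods. No mouse received a treatment. Because the deletion was not limited to liver or to endothelium, the comparison is that of 2 genotypes of mice, not of endothelial cells that lost miR-137. The mature miRNA that the Mir137-/- mice lack is given below with its seed, bases 2 to 8, in capitals, from RefSeq (GRCm38.p6). It lies at chr3:118433901-118433923 on the plus strand.
miR-137-3p: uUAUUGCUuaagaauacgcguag
No probe set carried the name Mir137, so the genotype was not checked here from the level of the miRNA.

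Liver sinusoids are lined by endothelium with open pores that clears waste from blood, while larger vessels have a continuous endothelium with tight junctions. Endothelial cells near the central vein secrete the Wnt ligands Wnt2 and Wnt9b and the Wnt enhancer Rspo3. Wnt ligands bind Frizzled receptors with Lrp5 or Lrp6 and stabilise β-catenin, and R-spondins bind Lgr4, Lgr5 or Lgr6 and protect Frizzled receptors from the ubiquitin ligases Rnf43 and Znrf3. In hepatocytes this pathway maintains the pericentral gene programme.

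Sex and the level of transcripts of other tissues also varied between the arrays. The female-specific transcript Xist read 10.91 on Mir137+/+ replicate 2 and 10.81 on Mir137+/+ replicate 3, whereas it read 3.66 to 4.24 on the other 4 arrays, and Y-linked Eif2s3y was at 2.06 and 2.51 on those 2 arrays and between 8.46 and 8.62 elsewhere. The methods describe the mice as male. A fit with sex as a term therefore sets the 3 Mir137-/- arrays against a single array, Mir137+/+ replicate 1, which is assumed to vary like the others. Skeletal muscle markers were high on Mir137-/- replicate 1, where the median deviation of 12 genes from the Mir137+/+ mean was 4.01, against -0.03 to 0.17 on the other 5 arrays. Exocrine pancreas markers were high on replicate 2 of both genotypes, where the same median over 10 genes was 2.89 on the Mir137-/- array and 1.83 on the Mir137+/+ array, against -1.01 to -0.86 elsewhere. Results were therefore also fitted with sex as a term, without the arrays with Xist and without the arrays with pancreas transcripts, and the part of sex and of these tissues was not tested beyond these fits and the fits that left out 1 array. The first 2 of these are called the settings on sex, and they give the same differences with different p-values. In RNA of whole liver, fewer cells of a type and less RNA per cell cannot be told apart.

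Adgrg6, an adhesion G protein-coupled receptor known for its role in myelination by Schwann cells and in vessel growth, is annotated at chr10:14402583-14545723 (GRCm38.p6, as are all positions here). On the log2 scale of the arrays its brighter probe set read 4.88, 5.02 and 4.37 on the Mir137-/- arrays, against 4.06, 4.04 and 3.72 on the Mir137+/+ arrays. The Mir137-/- arrays were all above the Mir137+/+ arrays, and replicate 3 was the lowest within each genotype. The Mir137-/- mean of 4.76 ± 0.34 stood against 3.94 ± 0.19 in Mir137+/+ (SD of 3 arrays each), a difference of 0.82 (SE 0.18, 95% interval 0.40 to 1.23) or 1.76-fold. The adjusted p was 0.0248 with limma, adjusted over all genes. The second probe set read 3.71, 3.83 and 3.70 in Mir137-/-, against 3.66, 3.62 and 3.37 in Mir137+/+. It also had no overlap between genotypes, but its difference of 0.20 did not pass (adjusted p = 0.344 over all probe sets). Both probe sets were dim, since the array medians were between 4.88 and 4.91 and the lower quartiles between 3.40 and 3.47. On the Mir137+/+ arrays the brighter probe set also read below the array medians, its value on replicate 3 lay within the range of the second probe set, and no detection calls were used, so the 1.76-fold is that of a dim signal.

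Rspo3, an R-spondin that central vein endothelium makes, is annotated at chr10:29453106-29535867. These arrays of whole liver RNA do not show which cells its signal came from. Its brighter probe set read 7.23, 7.14 and 7.31 on the Mir137-/- arrays and 6.26, 6.63 and 6.80 on the Mir137+/+ arrays. The genotypes did not overlap, and the spread was wider in Mir137+/+, where replicate 1 was the lowest. The Mir137-/- mean of 7.23 ± 0.09 stood against 6.56 ± 0.28 in Mir137+/+ (SD of 3 arrays each), a difference of 0.66 (SE 0.14, 95% interval 0.34 to 0.99) or 1.58-fold, with an adjusted p of 0.0227. The other probe set, at 3.44, 3.87 and 3.82 in Mir137-/- against 3.68, 3.93 and 3.50 in Mir137+/+, was dim and differed by 0.01. The rise of Rspo3 was thus read from 1 of its 2 probe sets.

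Kdr, the main receptor for VEGF-A on endothelial cells, is annotated at chr5:75932827-75979072 and had 1 probe set. It read 8.97, 9.00 and 8.87 on the Mir137-/- arrays, against 8.35, 8.48 and 8.56 on the Mir137+/+ arrays. All Mir137-/- values were higher, with a Mir137-/- mean of 8.95 ± 0.07 against 8.46 ± 0.11 in Mir137+/+ (SD of 3 arrays each). The difference was 0.48 (SE 0.09, 95% interval 0.27 to 0.70) or 1.40-fold, with an adjusted p of 0.0150. Cldn5, the claudin that seals endothelial tight junctions, is annotated at chr16:18776847-18778262. Its only probe set read 7.52, 7.61 and 7.58 in Mir137-/-, against 6.85, 7.18 and 7.10 in Mir137+/+. Again the genotypes did not overlap, and Mir137+/+ replicate 1 was the lowest array. The Mir137-/- mean was 7.57 ± 0.05 against 7.04 ± 0.17 in Mir137+/+ (SD of 3 arrays each), which gave a difference of 0.53 (SE 0.11, 95% interval 0.28 to 0.77) or 1.44-fold and an adjusted p of 0.0184. Both genes were therefore higher in Mir137-/- by the test, at a size below the 1.5-fold required for a call.

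**Figure D1:**
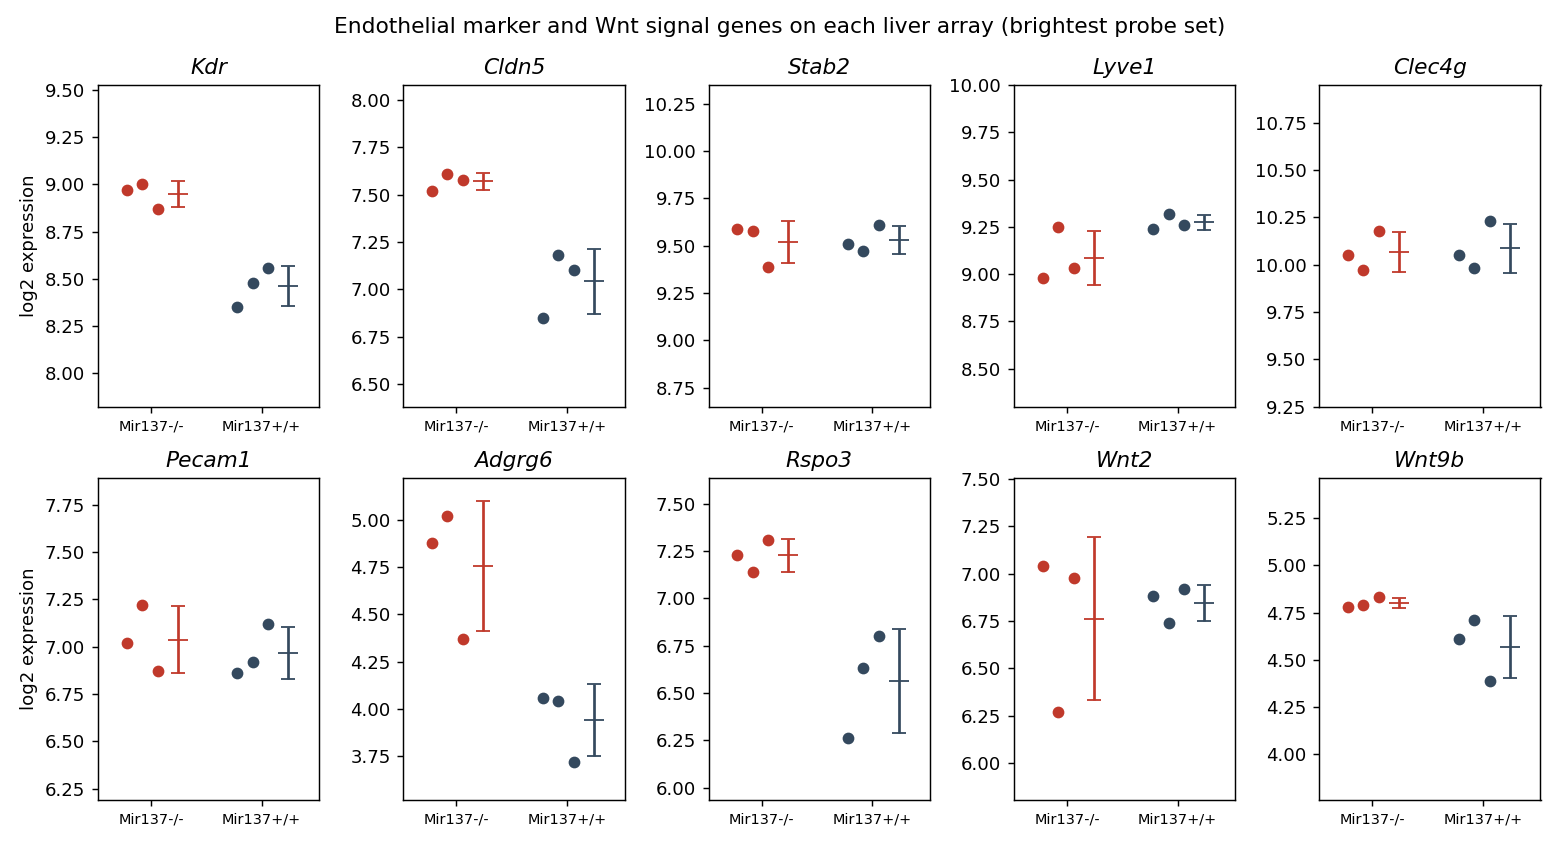
Log2 expression (y axis) of the 10 genes on each array, from the brightest probe set of the gene. Each point is 1 array, Mir137-/- in red on the left and Mir137+/+ in dark blue on the right. The bar beside the points is the mean ± SD of 3 arrays. Every panel spans the same range of log2 units around its own values, and Kdr, Cldn5, Adgrg6, Rspo3 and Wnt9b have no overlap between genotypes.

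The promoters of the 3 endothelial markers that passed the test are shown because RefSeq gives their sequence, from 250 bases before to 50 bases after the start site. The start site is that of the promoter entry, and the windows of Adgrg6, Kdr, Wnt2 and Wnt9b lie wholly inside the annotated gene. Capitals mark the GC box GGGCGG on either strand, so that a match on the other strand appears as its reverse complement.
Adgrg6 promoter, chr10:14544987-14545286, minus strand: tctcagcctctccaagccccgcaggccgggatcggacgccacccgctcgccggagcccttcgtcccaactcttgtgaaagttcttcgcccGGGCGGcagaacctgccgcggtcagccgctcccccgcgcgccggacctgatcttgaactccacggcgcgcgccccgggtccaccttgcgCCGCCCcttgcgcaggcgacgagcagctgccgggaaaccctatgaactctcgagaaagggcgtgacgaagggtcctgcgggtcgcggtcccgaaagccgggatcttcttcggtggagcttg
Kdr promoter, chr5:75978406-75978705, minus strand: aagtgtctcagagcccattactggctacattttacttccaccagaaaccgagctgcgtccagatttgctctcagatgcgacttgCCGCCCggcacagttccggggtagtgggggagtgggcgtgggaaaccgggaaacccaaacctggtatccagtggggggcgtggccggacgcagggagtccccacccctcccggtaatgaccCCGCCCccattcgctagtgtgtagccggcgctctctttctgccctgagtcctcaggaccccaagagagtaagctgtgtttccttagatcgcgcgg
Cldn5 promoter, chr16:18776597-18776896, plus strand: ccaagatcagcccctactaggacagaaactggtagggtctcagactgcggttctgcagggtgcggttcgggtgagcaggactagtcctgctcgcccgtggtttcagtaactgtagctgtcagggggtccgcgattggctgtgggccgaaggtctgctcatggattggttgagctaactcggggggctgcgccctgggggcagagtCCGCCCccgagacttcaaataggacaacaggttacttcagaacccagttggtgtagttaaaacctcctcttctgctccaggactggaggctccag
Of the 10 genes, 7 had a promoter entry of this kind, and Lyve1, Pecam1 and Rspo3 had none. The GC box matched 2 times in Adgrg6, 2 times in Kdr and 1 time in Cldn5, 2 times in Wnt2, 3 times in Wnt9b, and not in Stab2 or Clec4g, against 35.7% of 32851 promoters of that length with at least 1 match. The ETS core GGAAG, searched like all motifs here on both strands and a motif that endothelial transcription factors of the ETS family bind, matched 1 time in Kdr, 1 time in Stab2, 1 time in Wnt2 and 3 times in Clec4g (2 of them sharing a base), and 71.4% of all promoters held it. CTTTGA, part of the site that TCF and LEF factors bind, had no match in these 7 windows and was in 16.0% of all promoters, and the GATA motif AGATAA had none and was in 11.2%. The GC box and the ETS core can share bases where they adjoin, and a match describes the sequence alone.

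Stab2, Clec4g and Lyve1, the markers of the set that belong to the sinusoid itself, did not pass the test. Stab2, a scavenger receptor that takes up hyaluronan, read 9.59, 9.58 and 9.39 in Mir137-/- and 9.51, 9.47 and 9.61 in Mir137+/+. The genotypes overlapped, with means of 9.52 ± 0.11 in Mir137-/- and 9.53 ± 0.07 in Mir137+/+ and a difference of -0.01 (95% interval -0.23 to 0.21, adjusted p = 0.961). Clec4g, a C-type lectin of sinusoidal and lymph node endothelium, read 10.05, 9.97 and 10.18 in Mir137-/- and 10.05, 9.98 and 10.23 in Mir137+/+, a difference of -0.02 (95% interval -0.26 to 0.22, adjusted p = 0.930). Its second, dim probe set differed by 0.08. For these 2 genes the interval leaves out a change of 1.5-fold in either direction, which is 0.58 on the log2 scale. The intervals of Lyve1, Pecam1, Wnt2 and Wnt9b, given below, do so too. The sign of both differences was not fixed, since quantile normalization turned that of Stab2 to 0.03 and that of Clec4g to 0.01.

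Lyve1, a hyaluronan receptor of sinusoidal and lymphatic endothelium, was at 8.98, 9.25 and 9.03 in Mir137-/- and at 9.24, 9.32 and 9.26 in Mir137+/+. The lowest 2 arrays were Mir137-/-, while Mir137-/- replicate 2 lay among the Mir137+/+ values. The means of 9.09 ± 0.14 in Mir137-/- and 9.27 ± 0.04 in Mir137+/+ differed by -0.19 (95% interval -0.41 to 0.04, adjusted p = 0.273), and the second probe set differed by -0.09 (adjusted p = 0.653 over all probe sets). Pecam1, an adhesion molecule at the junctions of endothelium in all vessels, read 7.02, 7.22 and 6.87 in Mir137-/- and 6.86, 6.92 and 7.12 in Mir137+/+. The values of Pecam1 overlapped throughout, with a difference of 0.07 (95% interval -0.20 to 0.34, adjusted p = 0.763). Without Mir137-/- replicate 2, the highest array, its difference was -0.02.

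The 2 Wnt ligands did not pass. Wnt2, which pericentral and sinusoidal endothelium secretes, was at 7.04, 6.27 and 6.98 in Mir137-/- and at 6.88, 6.74 and 6.92 in Mir137+/+. Mir137-/- replicate 2 was the lowest array by a wide margin, and the other 2 Mir137-/- arrays were the highest of all. The difference of -0.08 (95% interval -0.54 to 0.37, adjusted p = 0.836) turned to 0.16 without that array, and its interval is the widest of the 10 genes. Replicate 2 was also the Mir137-/- array with pancreas transcripts. Wnt9b, the ligand most restricted to the central vein, was at 4.78, 4.79 and 4.83 in Mir137-/-, against 4.61, 4.71 and 4.39 in Mir137+/+. All Mir137-/- arrays were above all Mir137+/+ arrays, with means of 4.80 ± 0.03 in Mir137-/- and 4.57 ± 0.16 in Mir137+/+. The difference of 0.23 (95% interval -0.01 to 0.47) did not pass (adjusted p = 0.198), and the second probe set of Wnt9b differed by -0.05. Both probe sets of Wnt9b were dim, below the array medians of 4.88 to 4.91.

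**Figure D2:**
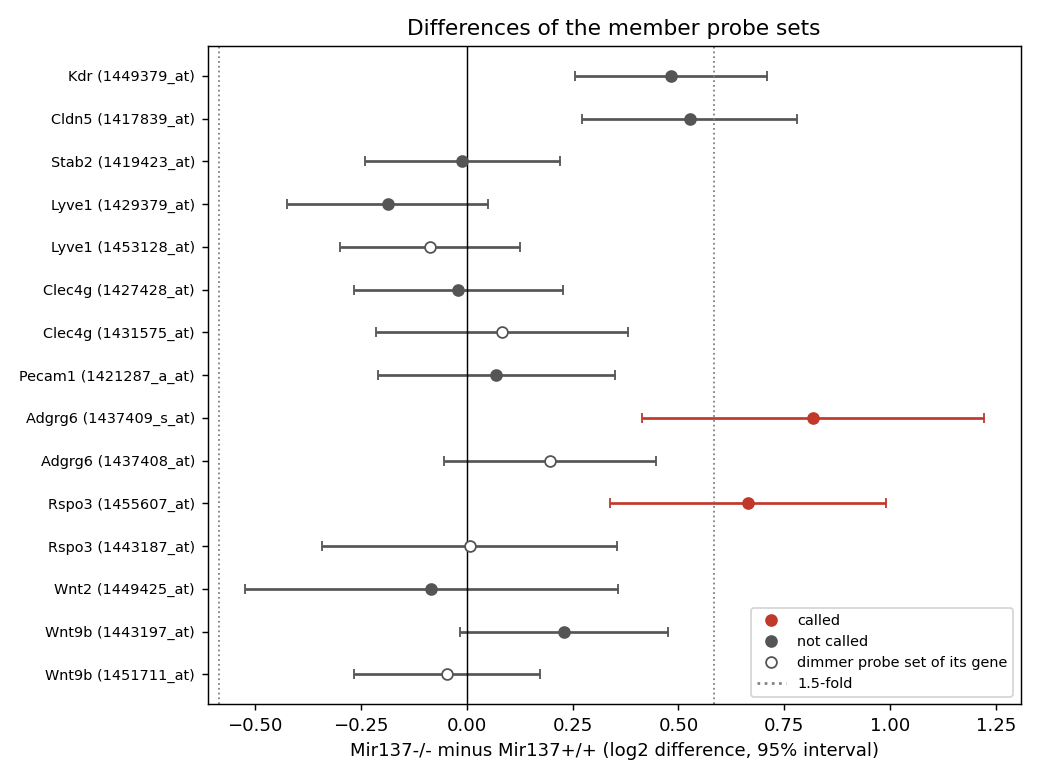
Log2 difference, Mir137-/- minus Mir137+/+, of the 15 probe sets with its 95% interval (x axis), 1 row per probe set in the order of the genes. Red marks called probe sets, open circles the dimmer probe set of a gene, and dotted lines a 1.5-fold change. Only 1 probe set each of Adgrg6 and Rspo3 is called, and the intervals of Stab2 and Clec4g lie across 0.

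In all, 2 of the 10 genes rose and 0 fell, where a call needs an adjusted p below 0.05 and a change above 1.5-fold. Over all 18193 genes, 2.34% rose and 3.34% fell. Without the fold threshold 4 of the 10 were higher and 0 were lower, beside 5.06% of all genes that were higher and 1256 of the 18193 that were lower. At an unadjusted p below 0.05, 0 of the 10 were lower with limma, beside 2658 of all genes. The Mir137-/- arrays lay above the Mir137+/+ arrays without overlap for 5 of the 10 genes and below them for 0. Over all genes, 14.9% were separated upwards and 3164 of the 18193 downwards. By probe set, 2 of the 15 rose, beside 1.94% of the 45037 probe sets. The median difference of the 10 genes was 0.15, that of all genes 0.003. With 3 arrays per genotype the smallest two-sided p of an exact permutation test is 0.1, so the calls rest on the moderated variance that limma takes from all genes.

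**Figure D3:**
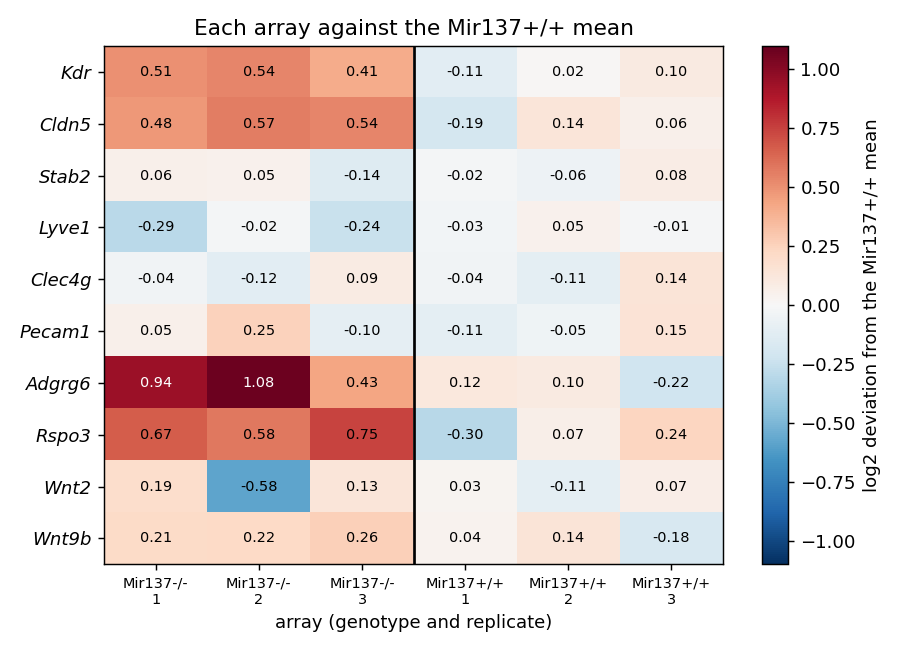
Deviation of each array from the Mir137+/+ mean of the gene, in log2 units, for the 10 genes (rows) on the 6 arrays (columns), Mir137-/- on the left. Red is above and blue below that mean, and the number in a cell is the deviation. Adgrg6, Rspo3, Cldn5 and Kdr are above it on all Mir137-/- arrays, and Wnt2 is at -0.58 on Mir137-/- replicate 2.

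The called and passing genes depended on single arrays in different degree. The counts of alternatives given here and below take in the methods' t-test at its unadjusted p. They also take in the fit with no fold threshold, which repeats the p-values of the main fit. Rspo3 was higher in Mir137-/- under all 20 alternatives, was called in 12, and had adjusted p-values of 0.00435 to 0.116. Leaving out Mir137-/- replicate 1 gave it an adjusted p of 0.0609, leaving out Mir137-/- replicate 3 gave 0.0604, and leaving out Mir137+/+ replicate 2 gave 0.0632. With Mir137+/+ replicate 1 out, its difference was 0.51, under the fold threshold. With sex as a term the Rspo3 difference was 0.97 (adjusted p = 0.0267), without both arrays with Xist it was 0.97 (adjusted p = 0.0657), and without the arrays with pancreas transcripts 0.74 (adjusted p = 0.116). Adgrg6 was also higher in all 20, but was called in 9, with adjusted p-values of 0.00772 to 0.344. Leaving out any 1 array other than Mir137-/- replicate 3 took its adjusted p above the threshold, to between 0.0578 and 0.0882, and without that replicate the difference was 1.01 (adjusted p = 0.00772). With sex as a term the Adgrg6 difference was 0.70 (adjusted p = 0.257). Kdr and Cldn5 were higher in all 20 alternatives, and each had a p below 0.05 in 14, counted in this way. Leaving out Mir137+/+ replicate 1 took the adjusted p of Kdr to 0.0570, and leaving out Mir137+/+ replicate 2 took it to 0.0531. For Cldn5 it became 0.0529 once Mir137-/- replicate 2 was dropped, 0.0515 once Mir137+/+ replicate 1 was, and 0.0547 once Mir137+/+ replicate 3 was. In both settings on sex, which leave a single Mir137+/+ array for the comparison, Kdr differed by 0.60 and Cldn5 by 0.72. Leaving out Mir137+/+ replicate 2 made Cldn5 a called gene (0.60, adjusted p = 0.0315). Without the arrays with pancreas transcripts the adjusted p was 0.118 for Kdr and 0.0813 for Cldn5. With the methods' t-test after adjustment it was 0.0512 for Kdr and 0.0751 for Cldn5. Muscle transcripts moved with Mir137-/- replicate 1 alone, and without it Rspo3 differed by 0.66 and Adgrg6 by 0.76.

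Further endothelial genes were read from lists to place the markers in their tissue. Of 18 other markers of endothelium in all vessels, 1 rose and 0 fell. A positive difference was found for 17 of them, beside 9275 of all 18193 genes. Their median was 0.20, beside 0.003 over all genes. The gene that rose was Gja4, a gap junction connexin that was placed in this list although it is best known from arterial endothelium, at 7.20, 7.16 and 7.04 in Mir137-/- against 6.52, 6.48 and 6.36 in Mir137+/+. Its difference was 0.68 (SE 0.09, adjusted p = 0.00333), and its values did not overlap. The call of Gja4 was lost with sex as a term (adjusted p = 0.0742), without the arrays with Xist (0.155) and without the arrays with pancreas transcripts (0.0534), at differences of 0.61 to 0.68. By the adjusted p alone, 4 of the 18 were higher and 1 was lower, beside 5.06% of all genes that were higher and 1256 of the 18193 that were lower. Without overlap, 9 lay above Mir137+/+ and 1 below, beside 14.9% of all genes separated upwards and 3164 of the 18193 downwards. The lower gene was S1pr1, a sphingosine-1-phosphate receptor that steadies vessel walls, at -0.48 (adjusted p = 0.0288), a change under 1.5-fold. Cdh5, the cadherin that defines endothelial junctions, was at 7.73, 7.94 and 7.76 in Mir137-/- and at 7.53, 7.67 and 7.59 in Mir137+/+, outside the naming rule, chosen after its values were seen and shown as a defining marker. Its difference was 0.21, with a 95% interval that reached 0.00. Of 17 other sinusoidal markers 0 rose and 0 fell, with a median of 0.15. That median was 0.08 without Mir137-/- replicate 2, where 1 gene fell, and 0.08 without Mir137-/- replicate 3, and 1 gene rose with sex as a term. Stab1, the scavenger receptor related to Stab2, had the smallest p of that list at 0.39 (adjusted p = 0.0347), followed by Bmp2, the ligand through which endothelium controls hepatocyte iron sensing, at 0.44 (adjusted p = 0.0832).

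Markers of continuous or arterial endothelium (11 of 13 measured) held 0 calls and a median of 0.05, with Sox17, an arterial transcription factor, at 0.47 (adjusted p = 0.0264) and the water channel Aqp1 at 0.37 (adjusted p = 0.0497). The sign of that median was not fixed, since it was -0.06 without Mir137+/+ replicate 1, -0.06 without the arrays with pancreas transcripts and -0.02 in both settings on sex. Lymphatic markers (4 of 5 measured) also held 0 calls, and Prox1, a transcription factor of lymphatic endothelium that hepatocytes express too, was at -0.58 (adjusted p = 0.0388), just under the fold threshold. Pdpn, a lymphatic surface glycoprotein, was at 0.38 (adjusted p = 0.163). Among 14 measured VEGF and angiopoietin genes, 1 rose and 0 fell. Vegfb, a ligand of Flt1, was at 7.41, 7.44 and 7.09 in Mir137-/- and at 6.69, 6.77 and 6.58 in Mir137+/+, a difference of 0.63 (SE 0.12, adjusted p = 0.0134). The call was lost without Mir137-/- replicate 2, where the difference was 0.57, and without Mir137+/+ replicate 3 (adjusted p = 0.0581), and also in both settings on sex (0.145 and 0.235), without the arrays with pancreas transcripts (0.0921) and with the methods' t-test after adjustment (0.0759). Vegfc, a ligand of Flt4 and of Kdr, had a difference of 0.40 (adjusted p = 0.0307), under the fold threshold.

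Of the other Wnt ligands, 17 were measured and 0 were called, with Wnt1 at 0.29 (adjusted p = 0.0990) and Wnt8b at 0.33 (adjusted p = 0.175) leading by p. None of the 3 other R-spondins passed, and the first of them by p were Rspo1 at 0.13 (adjusted p = 0.624) and Rspo4 at -0.05 (adjusted p = 0.851). The rise among R-spondins was therefore that of Rspo3 by the call, although its difference from the other R-spondins was not tested. Wnt1, Wnt8b, Rspo1 and Rspo4 were dim. Their Mir137-/- means of 3.83, 3.92, 4.39 and 2.95 lay below the array medians of 4.88 to 4.91, as did their Mir137+/+ means. The absence of a call for them is that of dim signals. Of 23 genes for Wnt and R-spondin receptors and ligand release, 1 rose and 1 fell. Lgr4, an R-spondin receptor, fell to 8.93, 8.77 and 8.79 in Mir137-/-, against 9.49, 9.51 and 9.44 in Mir137+/+. The Lgr4 difference was -0.65 (SE 0.09, adjusted p = 0.00323), and its second, dim probe set was at 0.08. The Lgr4 call was lost as the mean of both probe sets (-0.29, adjusted p = 0.0886), in the settings on sex (0.0585 and 0.133) and without the arrays with pancreas transcripts (0.0555). Fzd3, a Frizzled receptor, rose by 0.59 (SE 0.16, adjusted p = 0.0483), from the brightest of its 6 probe sets. That call held in 7 of 20 alternatives and was lost when any 1 array was left out, with differences of 0.42 to 0.67, and as the mean of its probe sets (0.15, adjusted p = 0.419).

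The Wnt inhibitors (23 of 24 measured) held 2 genes that rose and 0 that fell, with a median of 0.10, which was 0.05 without Mir137-/- replicate 1. Wif1, a secreted protein that binds Wnt ligands, was at 6.40, 5.55 and 6.78 in Mir137-/-, against 4.23, 4.58 and 4.75 in Mir137+/+. The difference of 1.72 (SE 0.29, adjusted p = 0.00950) was beyond that of any member, and Mir137-/- replicate 2 was the closest to Mir137+/+. Dkk3, a Dickkopf relative, was at 5.62, 5.40 and 5.48 in Mir137-/-, against 4.66, 5.07 and 4.98 in Mir137+/+, a difference of 0.60 (SE 0.13, adjusted p = 0.0218). Its second probe set was also called, at 0.92 (adjusted p = 0.0182 over all probe sets). The alternatives that follow are those of the brighter probe set unless probe sets were averaged. Dkk3 lost its call when Mir137-/- replicate 1 (adjusted p = 0.0661), Mir137+/+ replicate 1 (0.0542) or Mir137+/+ replicate 3 (0.0589) was left out, with the replicate block (0.0566), with median centring (0.58, under the fold threshold), with the methods' t-test after adjustment (0.102), without the arrays with Xist (0.0958) and without the arrays with pancreas transcripts (0.0666). The call of Wif1 held without any 1 array, but was lost with that t-test (0.0984) and in the settings on sex (0.0629 and 0.132). The β-catenin core (17 of 18 measured) held 0 calls and a median of -0.06. Ctnnbip1, an inhibitor of the contact between β-catenin and TCF factors, was at -0.49 (adjusted p = 0.0183), and Dvl3, a relay protein downstream of Frizzled, was at 0.29 (adjusted p = 0.0647).

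Pericentral hepatocyte genes are known to be kept on by Wnt signalling, to which Rspo3, Wnt2 and Wnt9b belong. Of 23 measured, 0 rose and 3 fell, with a median of -0.20. The median deviation from the Mir137+/+ mean was -0.41 on Mir137-/- replicate 2, one of the arrays with pancreas transcripts, against -0.08 and -0.12 on replicates 1 and 3. Without the arrays with pancreas transcripts the median of the list was -0.07, with 1 gene that rose and 1 that fell. In both settings on sex it was -0.13, with 2 genes that fell with sex as a term and 0 without the arrays with Xist. Cyp1a2, a drug-metabolising cytochrome, was at 9.33, 8.60 and 9.19 in Mir137-/-, against 10.19, 10.25 and 10.20 in Mir137+/+, a difference of -1.17 (SE 0.18, adjusted p = 0.00589). Slc1a2, a glutamate transporter, was at -0.84 (adjusted p = 0.0109), and Lect2, a secreted hepatokine, at -0.66 (adjusted p = 0.0441). The calls of Cyp1a2 and Slc1a2 held without any 1 array. Cyp1a2 lost its call in the settings on sex (adjusted p of 0.0882 and 0.177) and with the methods' t-test after adjustment (0.0727). Slc1a2 lost it in the same settings (0.165, 0.272 and 0.0849), without the arrays with pancreas transcripts (0.0889) and as the mean of its probe sets (-0.37, adjusted p = 0.0654). The call of Lect2 was lost when any array other than Mir137-/- replicate 3 was left out, with differences of -0.77 to -0.46, in the settings on sex (0.201 and 0.312), without the arrays with pancreas transcripts (0.0668), and with the methods' t-test after adjustment (0.176) or a trended, robust fit (0.0519). The genes most widely used as β-catenin targets were outside the naming rule and are given here after their values were seen. Glul, glutamine synthetase, was at 11.02, 10.75 and 11.15 in Mir137-/- and at 10.94, 11.18 and 11.06 in Mir137+/+, with a 95% interval of -0.37 to 0.20. Axin2, a feedback inhibitor, was at 6.28, 5.88 and 6.20 in Mir137-/- and at 5.52, 5.97 and 5.98 in Mir137+/+, with a 95% interval of -0.07 to 0.66. Lgr5, an R-spondin receptor, was at 6.21, 5.77 and 6.17 in Mir137-/- and at 6.15, 6.34 and 6.38 in Mir137+/+, with a 95% interval of -0.55 to 0.07. All 3 overlapped between genotypes and had no call. In the whole list, 8 of the 23 genes lay below Mir137+/+ without overlap and 0 lay above, beside 3164 of all 18193 genes separated downwards. By the adjusted p alone, 4 of the 23 were lower and 0 were higher.

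Periportal genes, which lie at the other end of the lobule, held 1 gene that rose and 5 that fell among 13 measured, with a median of -0.55. Those that fell were the cytochrome Cyp2f2 (-2.99, adjusted p = 0.000134), the growth factor Igf1 (-1.38, adjusted p = 0.000795), the immunoglobulin receptor Pigr (-1.86, adjusted p = 0.00155), the urea cycle enzyme Asl (-0.71, adjusted p = 0.00726) and the histidine enzyme Hal (-0.93, adjusted p = 0.0216), and Hsd17b6, a steroid dehydrogenase, rose (0.64, adjusted p = 0.0183). The calls of Cyp2f2 and Pigr held under all 20 alternatives, and that of Igf1 was lost only without the arrays with Xist (adjusted p = 0.0657). The call of Asl held without any 1 array but was lost in the settings on sex (0.117 and 0.215) and with the methods' t-test after adjustment (0.0579). That of Hal was lost when any array other than Mir137-/- replicate 2 was left out (0.0516 to 0.0731), in the settings on sex (0.165 and 0.275) and with that t-test (0.129). Hsd17b6 kept its call in 11 of 20 alternatives, with differences of 0.24 as the mean of its probe sets, 0.44 in the settings on sex and 0.73 at most. Over the 12 lists of endothelial, Wnt and zonation genes together, 173 of 182 genes were measured, 6 rose and 9 fell. Over all genes, 2.34% rose and 3.34% fell.

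**Figure D4:**
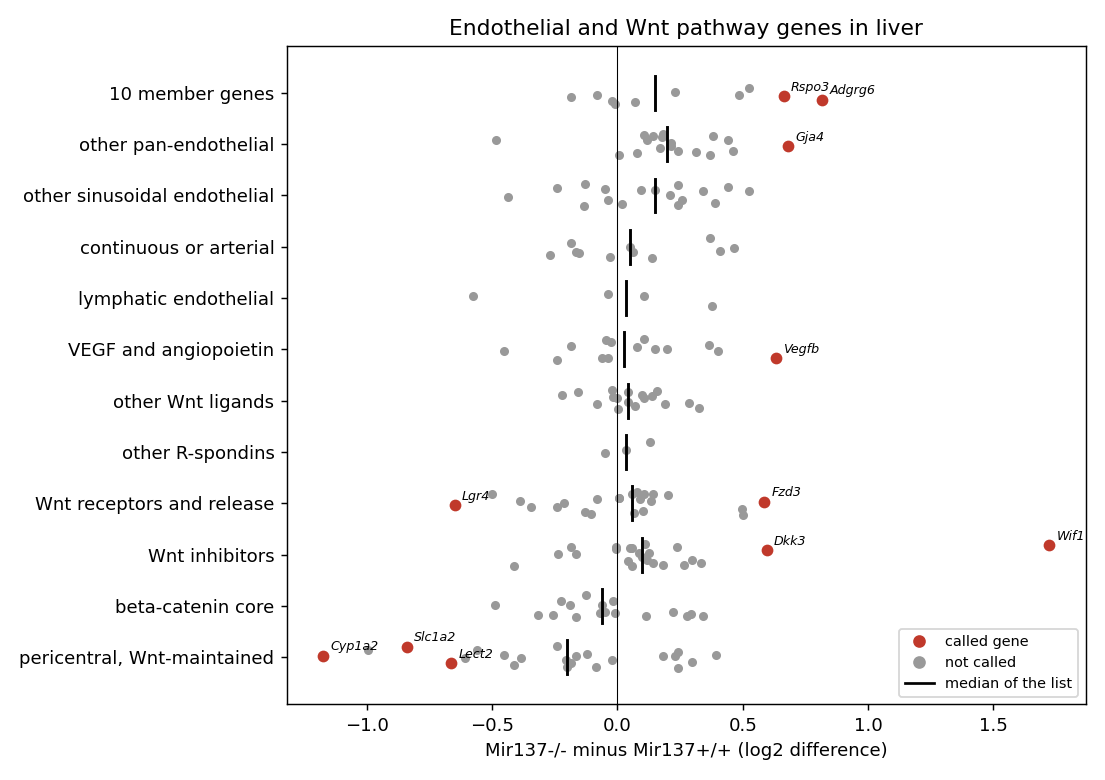
Log2 difference, Mir137-/- minus Mir137+/+ (x axis), of the 10 genes (top row) and of 11 lists of endothelial and Wnt genes. Each point is 1 gene, named and in red where called and grey otherwise, and the black line is the median of the row. The medians lie between -0.20 for the pericentral genes, which is -0.07 without the arrays with pancreas transcripts and -0.13 with sex as a term, and 0.20 for the other markers of endothelium in all vessels.

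Over the 6 arrays, the list genes with the pattern most like Rspo3 were Cd5l, a Kupffer cell protein (Pearson r = 0.973), Bmp2 (0.968) and Dkk3 (0.959), out of 254 genes compared. For Wnt2 they were Rspo2 (0.918), Hgf, the hepatocyte growth factor (0.902), and Notum, a Wnt-inactivating enzyme (0.838), and these shared the low value on Mir137-/- replicate 2. For Wnt9b they were Apob, an apolipoprotein (0.970), Nrp2, a VEGF-C co-receptor (0.948), and Cd68, a macrophage glycoprotein (0.930). These correlations describe 6 arrays that share the difference between genotypes and the tissues named above.

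Markers of other cell types in the liver, and of the tissues that could be carried over, were read in the same way. Kupffer cell markers (12 measured) had 0 calls and a median of 0.04, with Cd5l at 0.33, Cd68 at 0.29 and Marco at 0.48 leading by p. Stellate cell markers (12 measured) held 1 gene that rose, Rgs5 of pericytes at 0.80 (adjusted p = 0.0183), and 1 that fell, the retinoid enzyme Lrat at -0.67 (adjusted p = 0.0359), with a median of 0.07. The other probe sets of Rgs5 were also called, at 0.96 to 1.19 (adjusted p of 0.000469 to 0.00176 over all probe sets). The lost calls that follow are those of the brightest probe set. Rgs5 lost its call without Mir137+/+ replicate 1 (adjusted p = 0.0626) or replicate 3 (0.0583). Lrat lost its call when any array other than Mir137-/- replicate 3 was left out, with differences of -0.74 to -0.48. Both also lost it in the settings on sex and without the arrays with pancreas transcripts. Cholangiocyte markers (6 measured) had 0 calls and a median of 0.06, and hepatocyte markers (10 measured) 0 calls and a median of 0.00. Erythroid and blood progenitor markers (10 measured) had a median of -0.10 and 2 genes that fell, the B cell genes Vpreb1 at -2.08 (adjusted p = 0.000424) and Cd79b at -0.65 (adjusted p = 0.00589), and 1 gene that fell in either setting on sex. No call was made among the muscle markers, with a median of 1.35, or the pancreas markers, with a median of 0.41, and both followed the single arrays described above.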

How the data were processed

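Liver RNA was measured on the Affymetrix Mouse Genome array by the authors, 1 mouse per array. The deposited log2 values are probe set summaries, for which the methods name RMA with a baseline-to-mean step and the labels name GCRMA without a version. They were used as deposited, without further normalization. Array medians were 4.88 to 4.91. Controls were left out, which kept 45037 probe sets, and 34945 of them had 1 gene symbol and 932 several. The probe set with the highest mean stood for each of 18193 genes. Groups came from the genotype labels. limma (version 3.58.1, R 4.3.3) fitted the contrast Mir137-/- minus Mir137+/+ with eBayes and no covariate, and p-values were two-sided and adjusted by Benjamini-Hochberg over all genes or all probe sets. A call needed an adjusted p below 0.05 and a change above 1.5-fold, and other adjusted p-values in the text are from the same fit. The number of arrays limits the precision. No detection calls were used.

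The members, gene lists and tests were chosen with earlier results of these data known. Every member was named, and of each list the called genes or, with fewer than 2, also the genes with the smallest p up to 2. Of lists for other cell types at most 3 were named. List genes with no measured probe set were not analysed here. Alternatives were the methods' t-test, no fold threshold, eBayes with trend and robust, quantile normalization, median centring, array weights, leaving out the dimmest 40% of probe sets or those ending in _s_at or _x_at, the mean of all probe sets, the replicate number as a block, each array left out, sex as a term, and leaving out the arrays with Xist or pancreas transcripts. The fit was tested on simulated data. Promoter and miRNA sequences are from RefSeq (GRCm38.p6).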

Additional observations from a re-analysis of the deposited data

How the results depend on the processing

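The 2 members that rose remained 2 with the methods' t-test at unadjusted p, trend and robust, quantile normalization, median centring, array weights and without dim probe sets, and 0 fell under every alternative. The count was 0 with the methods' t-test after Benjamini-Hochberg, with the mean of all probe sets, without the arrays with Xist and without the arrays with pancreas transcripts, 1 without probe sets ending in _s_at or _x_at (Rspo3), 4 with no fold threshold, and 0 to 1 when 1 array was left out. Deviations from the group means correlated at 0.10, 0.23 and 0.03 between arrays of the same replicate number. Between arrays of unlike numbers the correlations were -0.16 to 0.06. Whether the numbers pair the arrays was not settled, and with the replicate block 2 members rose. Rspo3 was at 0.34 and Adgrg6 at 0.51 as the mean of their probe sets, and Adgrg6 at 0.20 without its _s_at probe set. The 1 member that rose without Mir137+/+ replicate 2 was Cldn5 (adjusted p = 0.0315), whereas Rspo3 (0.0632) and Adgrg6 (0.0646) did not pass there.

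The sign of 4 members that did not pass turned. Stab2 was at 0.033 with quantile normalization and at 0.01 in both settings on sex (sex as a term, or without the arrays with Xist), and between -0.045 and 0.055 when 1 array was left out. Clec4g was at 0.0086 with quantile normalization, at 0.032 when its probe sets were averaged and at 0.017 in both settings on sex, and between -0.077 and 0.052 when 1 array was left out. Without the arrays with pancreas transcripts Pecam1 was at -0.045 and Wnt2 at 0.11, and with 1 array left out Pecam1 was between -0.022 and 0.15 and Wnt2 between -0.22 and 0.16, both turning without Mir137-/- replicate 2.

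Of the genes in the 12 lists, 6 rose and 9 fell. The counts were 1 and 4 with the adjusted t-test of the methods, 14 and 16 with no fold threshold, 3 and 5 with sex as a term, and 0 and 2 without the arrays with Xist, while 3 rose without the arrays with pancreas transcripts. With 1 array left out, 2 to 5 rose (3 without Mir137-/- replicate 1 and 2 without Mir137+/+ replicate 3) and 7 to 10 fell. Over all genes, 425 rose and 607 fell, against 182 and 284 with the adjusted t-test, 921 and 1256 with no fold threshold, 184 and 259 with sex as a term, 54 and 73 without the arrays with Xist, and 228 and 390 without the arrays with pancreas transcripts, with 345 to 494 and 472 to 640 when 1 array was left out. The settings that leave out 2 arrays test with fewer samples, and the cause of the other shifts was not tested.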
